A study of Arabidopsis thaliana with 24 samples.

Results

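DNA methylation of 10 genes for Pol IV, Pol V, the CLASSY remodelers and their closest partners in RNA-directed DNA methylation was followed in sperm nuclei and in stem-cell nuclei of Arabidopsis thaliana. The measure was bisulfite sequencing, in which a cytosine still read as cytosine counts as methylated. The genes were taken by their locus identifiers from the 32961 nuclear genes of the deposited table, with no measured value used. Sperm nuclei came from pollen harvested 35 days after germination, and stem-cell nuclei came from seedlings harvested 7 days after germination and were sorted for mCherry, a red fluorescent protein. Each cell type was measured in 4 genotypes of the Col-0 ecotype, called ago5, ago9, ago59 and wt21 in the labels. The labels give no alleles, do not spell out ago59 and do not say which cells the mCherry transgene marks. They list 24 samples, made up of 2 replicates per genotype and cell type with the 16 stem-cell samples spread over 2 sequencing runs. The table holds 1 value per genotype and cell type, so each of the 8 groups is called a pool here, and no replicate check or test was possible.

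RNA-directed DNA methylation is the pathway by which plants add methyl groups to cytosines at sequences that match small RNAs. RNA polymerase IV (Pol IV) starts transcripts that RDR2 copies into double-stranded RNA and DCL3 dices into small RNAs, and RNA polymerase V (Pol V) makes the transcripts that ARGONAUTE proteins loaded with those small RNAs recognise. SHH1 and the CLASSY remodelers bring Pol IV to its sites. Plant cytosines fall into the contexts CG, CHG and CHH, where H is any base but G. Methylation of CG alone inside a transcribed gene is called gene body methylation, whereas methylation in all 3 contexts marks transposable elements and silenced loci.

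The pools held between 204779091 and 303354876 cytosine calls each, and the median nuclear gene had between 639 and 824 CG calls. A level below is the share of calls read as methylated, with a 95% Wilson interval, and a difference between pools is in percentage points with a 95% Newcombe interval. These intervals cover counting error only, and 1 read can give several calls, so calls are not independent of each other. A difference was counted as called at 10 points or more with at least 10 calls in both pools, and a looser count took every difference whose interval left out 0. Every one of the 10 genes passed the minimum in every context and pool, with CG calls between 640 (SHH1 in ago59 stem-cell nuclei) and 4085 (NRPD1). Chloroplast CHH cytosines, which are not methylated by this pathway, read as methylated at 1.34% in ago5, 4.56% in ago9, 1.06% in ago59 and 1.37% in wt21 sperm nuclei, from only 18577 to 32063 calls, and at 0.303% to 0.312% in the 4 stem-cell pools.

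All 10 genes carried CG methylation in their bodies and next to none in CHG and CHH. Their median CG level lay between 34.1% and 36.5% in the 8 pools, beside medians of 2.22% to 4.00% over all nuclear genes. In each pool 9 or 10 of the 10 genes were at 10% CG or more, beside 34.9% to 39.5% of nuclear genes. Within the list the levels spread widely, from 3.78% at CLSY3 in ago59 stem-cell nuclei to 71.6% at NRPD1 in ago9 sperm nuclei.

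**Figure D1:**
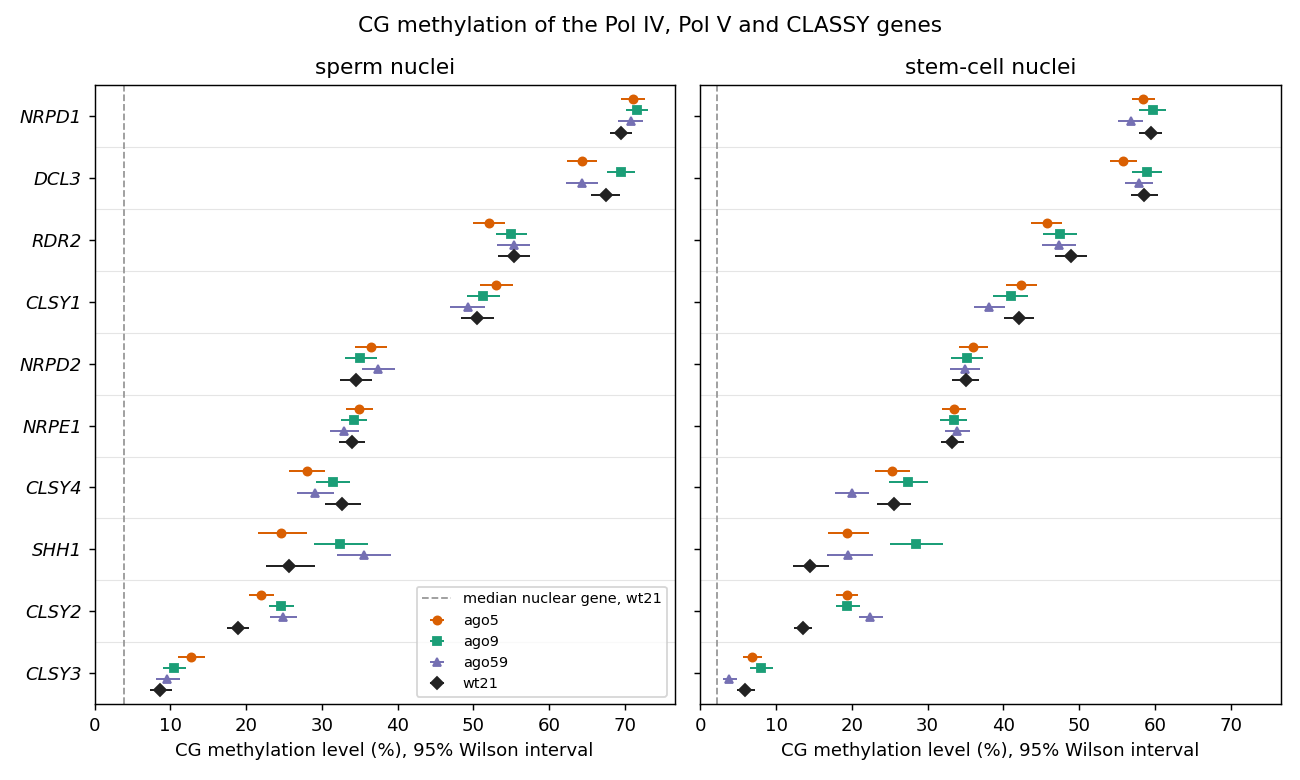
CG methylation level (%) of each gene, with its 95% Wilson interval, in sperm pools (left) and stem-cell pools (right) of ago5, ago9, ago59 and wt21; the dashed line is the median nuclear gene of the wt21 pool. NRPD1 and DCL3 lie above 55% in every pool, and CLSY3 lies below 13% in every pool. The 4 genotypes lie close together except at SHH1, CLSY2 and CLSY4, and at DCL3 in sperm nuclei.

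NRPD1 (AT1G63020) encodes the largest, catalytic subunit of Pol IV and lies on chromosome 1 at 23354685 to 23362589 (minus strand, TAIR10). Its CG level was 71.1% in ago5, 71.6% in ago9, 70.8% in ago59 and 69.5% in wt21 sperm nuclei. In stem-cell nuclei it was 58.5% in ago5, 59.7% in ago9, 56.8% in ago59 and 59.4% in wt21. The sperm pools were the higher ones in every genotype without overlap, and NRPD1 stood above 94.6% to 95.1% of all nuclear genes.

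NRPE1 (AT2G40030) encodes the largest subunit of Pol V (chromosome 2, 16714460 to 16723718, plus strand). Its CG level was 35.0% in ago5, 34.2% in ago9, 33.0% in ago59 and 34.0% in wt21 sperm nuclei, and 33.5% in ago5, 33.4% in ago9, 33.9% in ago59 and 33.2% in wt21 stem-cell nuclei. The 8 pools spanned only 33.0% to 35.0%, and the sperm and stem-cell ranges overlapped. NRPD2 (AT3G23780), the second largest subunit that both polymerases share (chromosome 3, 8567572 to 8574209, minus strand), behaved alike. NRPD2 was at 36.5% in ago5, 35.1% in ago9, 37.4% in ago59 and 34.5% in wt21 sperm nuclei, and 36.0% in ago5, 35.1% in ago9, 34.9% in ago59 and 35.0% in wt21 stem-cell nuclei. These ranges overlapped as well. The largest subunit gene of Pol IV was thus more than 20 points above that of Pol V in every pool.

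Among the partners of Pol IV, DCL3 and RDR2 were the most methylated. DCL3 (AT3G43920) is the Dicer that cuts the double-stranded precursors (chromosome 3, 15753387 to 15760859, plus strand), and its CG level was 64.4% in ago5, 69.5% in ago9, 64.4% in ago59 and 67.5% in wt21 sperm nuclei. In stem-cell nuclei DCL3 was at 55.9% in ago5, 59.0% in ago9, 57.9% in ago59 and 58.6% in wt21, with no overlap between the cell types. RDR2 (AT4G11130) is the RNA-dependent RNA polymerase bound to Pol IV (chromosome 4, 6780449 to 6784632, plus strand). RDR2 had a CG level of 52.1% in ago5, 55.0% in ago9, 55.3% in ago59 and 55.4% in wt21 sperm nuclei, and 45.7% in ago5, 47.4% in ago9, 47.4% in ago59 and 48.9% in wt21 stem-cell nuclei, again without overlap. SHH1 (AT1G15215), a reader of histone H3 methylation that recruits Pol IV (chromosome 1, 5238044 to 5240051, plus strand), varied most. SHH1 was at 24.7% in ago5, 32.4% in ago9, 35.5% in ago59 and 25.7% in wt21 sperm nuclei, and 19.4% in ago5, 28.4% in ago9, 19.5% in ago59 and 14.4% in wt21 stem-cell nuclei. The ago9 stem-cell pool lay inside the sperm range.

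The 4 CLASSY genes encode SNF2-like chromatin remodelers that act with Pol IV, and they spread from the middle to the bottom of the list. CLSY1 (AT3G42670, chromosome 3, 14755798 to 14760629, minus strand) had CG levels of 53.1% in ago5, 51.3% in ago9, 49.2% in ago59 and 50.6% in wt21 sperm nuclei, and of 42.4% in ago5, 41.0% in ago9, 38.1% in ago59 and 42.0% in wt21 stem-cell nuclei. CLSY2 (AT5G20420, chromosome 5, 6898790 to 6904242, minus strand) had 22.0% in ago5, 24.6% in ago9, 24.9% in ago59 and 18.9% in wt21 sperm nuclei, and 19.3% in ago5, 19.4% in ago9, 22.5% in ago59 and 13.5% in wt21 stem-cell nuclei. In both cell types the wt21 pool was the lowest of the 4 at CLSY2. CLSY3 (AT1G05490, chromosome 1, 1618504 to 1623489, minus strand) had 12.7% in ago5, 10.5% in ago9, 9.54% in ago59 and 8.70% in wt21 sperm nuclei, and 6.77% in ago5, 7.95% in ago9, 3.78% in ago59 and 5.84% in wt21 stem-cell nuclei. CLSY4 (AT3G24340, chromosome 3, 8831935 to 8835829, minus strand) had 28.0% in ago5, 31.5% in ago9, 29.1% in ago59 and 32.7% in wt21 sperm nuclei, and 25.3% in ago5, 27.4% in ago9, 20.0% in ago59 and 25.5% in wt21 stem-cell nuclei. The sperm and stem-cell ranges did not overlap at CLSY1, CLSY3 and CLSY4 and overlapped at CLSY2.

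The order of the genes was nearly the same in all pools. NRPD1 and DCL3 held the first and second ranks everywhere, RDR2 and CLSY1 the next pair, NRPD2 the fifth rank and CLSY3 the last. The difference between NRPD1 and DCL3 had an interval that held 0 in 5 of 8 pools and left it out in ago5 and ago59 sperm nuclei and in ago5 stem-cell nuclei, by up to 6.68 points. NRPD2 lay 0.472 to 2.57 points above the gene ranked below it, and the interval held 0 in every pool but ago5 stem-cell nuclei (0.0433 to 5.10). The ranks of NRPE1, SHH1, CLSY4 and CLSY2 moved between pools, mostly through SHH1, which took ranks 6 to 9.

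Among 31715 genes with at least 10 calls throughout, the closest profile over the 24 levels (8 pools in 3 contexts) was measured by the mean absolute difference. It was AAO2 for CLSY1 (0.345 points), AT3G04490 for NRPE1 (0.342 points), AT5G51630 for NRPD2 (0.353 points), AT5G38212 for CLSY2 (0.406 points), AT1G23230 for RDR2 (0.451 points), HIRA for DCL3 (0.470 points) and AT2G17033 for CLSY4 (0.484 points). NRPD1 and SHH1 had more distant nearest genes, AT2G29065 at 0.773 points and AT3G12390 at 0.820 points. CLSY3, below 10% CG in both wt21 pools, was not matched.

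Genes of the same pathway outside the list were less methylated. The 23 other genes comprised ARGONAUTE partners, the methyltransferase DRM2, Pol V loading factors and smaller subunits of both polymerases. Their median CG level lay between 20.5% and 24.3% in the 8 pools, and 16 to 18 of the 23 were at 10% or more. In wt21 sperm nuclei DRD1, the remodeler that loads Pol V, was at 49.0%, and AGO4, the main ARGONAUTE of the pathway, at 31.0%. The small subunit genes NRPE5 and NRPE7 were at 1.12% and 0.401% there.

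CHG and CHH levels of the 10 genes were those of an ordinary gene. CHG levels ran from 0.209% to 1.20% in sperm nuclei and from 0.110% to 0.623% in stem-cell nuclei, and no gene reached 10% in CHG or CHH in any pool. The members' median CHH level was 0.683% to 0.807% in sperm nuclei, beside 0.749% to 0.862% for the median nuclear gene, and 0.258% to 0.345% in stem-cell nuclei, beside 0.297% to 0.314%. RDR2 in sperm nuclei was apart from the others. Its CHH level there was 1.56% in ago5 (138 of 8853 calls), 1.89% in ago9 (174 of 9217), 1.44% in ago59 (117 of 8115) and 1.76% in wt21 (165 of 9357), above 86.9% to 90.0% of nuclear genes. In stem-cell nuclei RDR2 was at 0.239% in ago5, 0.344% in ago9, 0.415% in ago59 and 0.193% in wt21. The lowest sperm pool of RDR2 was above the highest CHH level of any other member, 1.04% for CLSY3 in ago5 sperm nuclei. The difference between sperm and stem-cell nuclei at RDR2 was 1.32 points in ago5 (1.06 to 1.61), 1.54 in ago9 (1.25 to 1.86), 1.03 in ago59 (0.746 to 1.33) and 1.57 in wt21 (1.30 to 1.87). Between 5.04% and 9.03% of nuclear genes had a difference as high or higher. The chloroplast CHH level of the ago9 sperm pool exceeded the RDR2 level of that pool. With the chloroplast level subtracted from each pool, the RDR2 difference was 0.296 points in ago5, -2.83 in ago9, 0.270 in ago59 and 0.515 in wt21, so its sign turned in ago9 and it was smaller elsewhere. Among the 23 other pathway genes, DRM2 and SUVH9, singled out after their values were seen, were also above 1.5% CHH in all 4 sperm pools, with 1.97% and 2.11% in wt21.

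**Figure D2:**
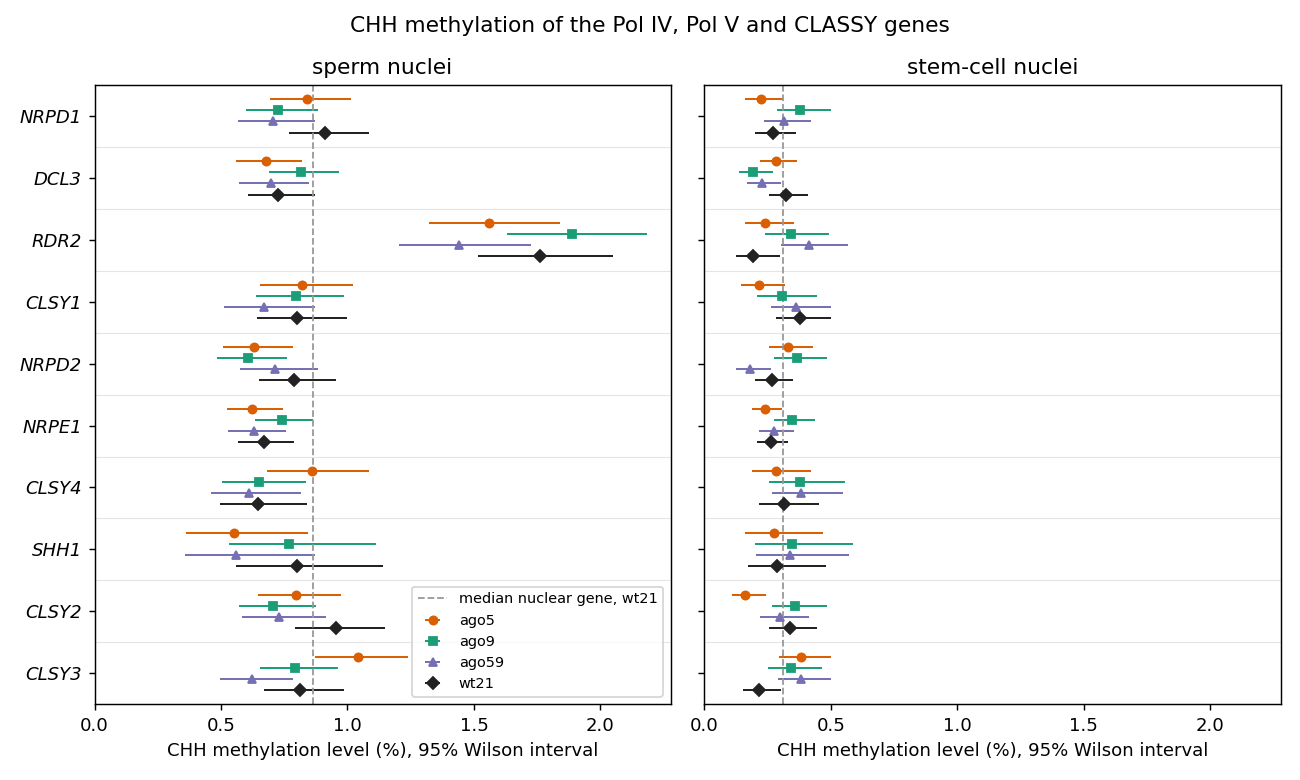
CHH methylation level (%) of each gene with its 95% Wilson interval in sperm pools (left) and stem-cell pools (right); the dashed line is the median nuclear gene of the wt21 pool. RDR2 lies between 1.44% and 1.89% in sperm nuclei, to the right of all other genes, and between 0.193% and 0.415% among them in stem-cell nuclei.

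The comparison of each mutant with wt21 follows the question of the series, the function of ARGONAUTE proteins in the shoot apical meristem. The 3 comparisons of a cell type share the same wt21 pool. In sperm nuclei 0 of 10 genes differed by 10 points in CG in ago5, ago9 or ago59, beside 1.73%, 1.94% and 2.03% of nuclear genes. In stem-cell nuclei the counts were 0 in ago5, 1 in ago9 and 0 in ago59, beside 1.91%, 2.32% and 2.21% of nuclear genes. The gene was SHH1. By the looser count, intervals left out 0 in sperm nuclei for 5 genes in ago5, 2 in ago9 and 4 in ago59, beside 17.7%, 18.3% and 18.7% of nuclear genes. In stem-cell nuclei they did so for 4 genes in ago5, 3 in ago9 and 6 in ago59, beside 18.6%, 19.5% and 20.1% of nuclear genes. Both directions occurred in ago5 and ago59, while the ago9 ones were all above wt21. The shares beside this looser count cover nuclear genes of any CG level, most of them less methylated than the members. No excess of members was therefore read from it. Taking only 0.25 of the calls as independent, since calls share reads, kept 7 of these 24 intervals off 0, 5 of them at CLSY2 and the others at SHH1 in ago59 sperm and ago9 stem-cell nuclei. The members' median difference lay between -1.13 and 1.26 points in the 6 comparisons, and the median over all nuclear genes between -0.0519 and 0. Among genes with a mean CG level of at least 10% in the pools compared, a background added after the data were seen, 2.79% were at least 10 points higher in ago9 than in wt21 stem-cell nuclei, the comparison that holds SHH1.

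**Figure D3:**
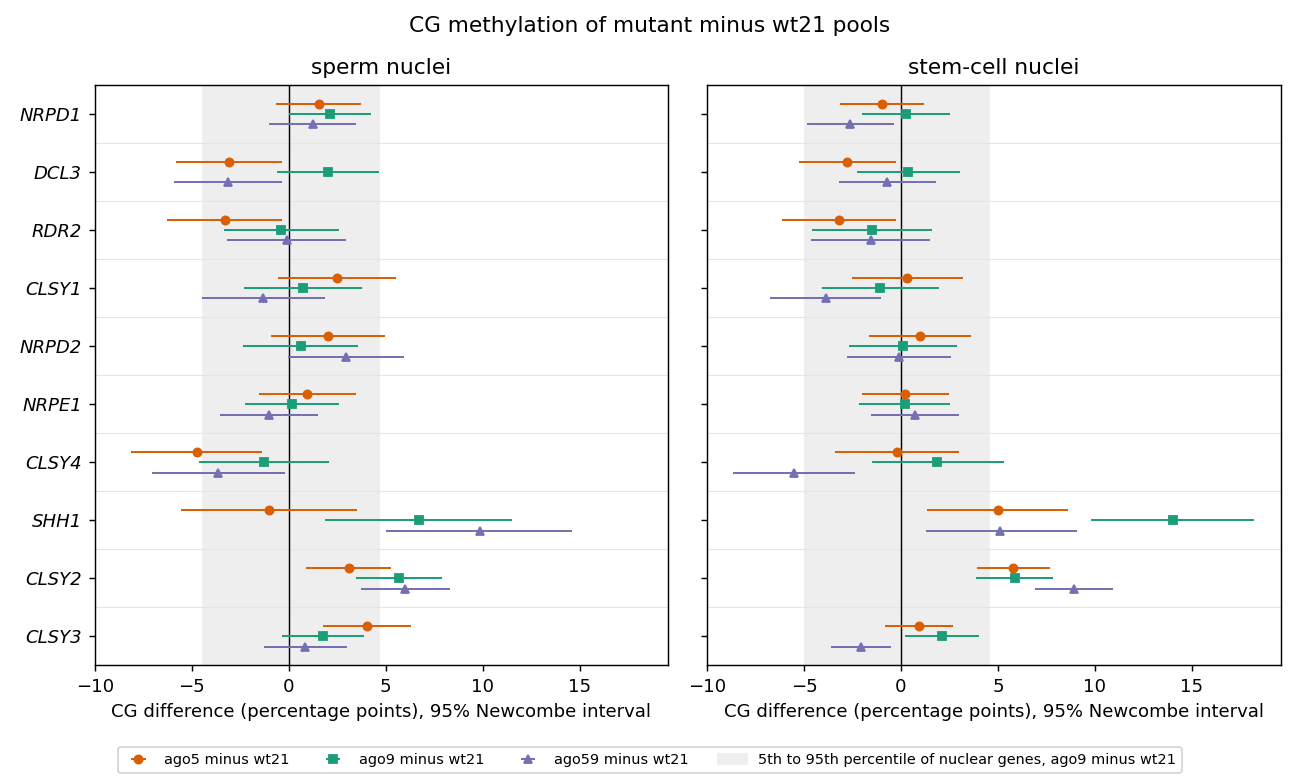
CG difference (percentage points) of ago5, ago9 and ago59 minus wt21 for each gene, with its 95% Newcombe interval, in sperm nuclei (left) and stem-cell nuclei (right); the grey band holds the 5th to 95th percentile of all nuclear genes in ago9 minus wt21. CLSY2 lies to the right of 0 in all 6 comparisons, SHH1 in 5 of them, and NRPE1 stays within 1.03 points of 0.

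SHH1 was higher than wt21 in 5 of 6 comparisons. In stem-cell nuclei its calls were 154 of 794 in ago5, 185 of 651 in ago9 and 125 of 640 in ago59, against 120 of 833 in wt21. These gave differences of 4.99 points in ago5 (1.35 to 8.64), 14.0 in ago9 (9.82 to 18.2) and 5.13 in ago59 (1.28 to 9.06). Of nuclear genes of any CG level, most of them less methylated than SHH1, 0.490% had a difference as high or higher than SHH1 in ago9. In sperm nuclei its calls were 173 of 701 in ago5, 211 of 651 in ago9 and 247 of 695 in ago59, against 183 of 712 in wt21. Here the differences were -1.02 points in ago5 (-5.54 to 3.50), 6.71 in ago9 (1.89 to 11.5) and 9.84 in ago59 (5.03 to 14.6), and the last of these lay just under the 10 points. The mutant that stood highest was thus ago9 in stem-cell nuclei and ago59 in sperm nuclei. The sperm difference minus the stem-cell difference was -7.30 points for ago9 (-13.7 to -0.928), -6.01 for ago5 (-11.8 to -0.204) and 4.71 for ago59 (-1.51 to 10.8). SHH1 is the shortest of the 10 genes at 2008 bp with 88 CG sites, and each pool read a CG site of it 7.27 to 9.47 times. Up to 10 genes on each side of SHH1 had median differences between -0.332 and -0.127 points in the same 6 comparisons. At 14.0 points SHH1 in ago9 stem-cell nuclei was above the highest of these 20 neighbours, 4.52 points. Neighbours were taken by position whatever their CG level, so these values do not set SHH1 against equally methylated genes. SHH1 shares 23 bp with AT1G15220, which was at 0.122% to 0.977% CG in all pools.

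CLSY2 was the one gene higher than wt21 in all 6 comparisons with every interval above 0, although in ago5 sperm nuclei the interval with 0.25 of the calls held 0 (-1.29 to 7.49). In sperm nuclei the differences were 3.10 points in ago5 (0.907 to 5.30), 5.69 in ago9 (3.46 to 7.93) and 6.01 in ago59 (3.70 to 8.33), and subtracting the chloroplast level brought the ago9 one to 3.22 points. In stem-cell nuclei they were 5.79 in ago5 (3.91 to 7.68), 5.86 in ago9 (3.90 to 7.85) and 8.91 in ago59 (6.91 to 10.9). Between 1.39% and 7.74% of nuclear genes lay as high or higher in the same comparisons. These shares cover nuclear genes of any CG level, most of them less methylated than CLSY2, so they do not set it against equally methylated genes. Since wt21 enters each of the 3 comparisons in a cell type, the repeats within a cell type are not independent. CLSY2 lies 0.288 Mb from AGO9 on chromosome 5. The neighbouring genes, up to 10 on each side with 18 or 19 measured and taken whatever their CG level, had median differences between -0.247 and 0.227 points. The excess of CLSY2 over that median in sperm nuclei was 3.00 points for ago5, 5.81 for ago9 and 6.26 for ago59, and in stem-cell nuclei it was 5.57 points for ago5, 5.88 for ago9 and 8.96 for ago59. In sperm nuclei no neighbour was higher than CLSY2 in any of the 3 mutants, where the highest neighbour reached 2.55 points. In stem-cell nuclei the highest neighbour was at 25 points in ago5, at 8.68 points in ago9 and at 20.2 points in ago59. None of these highest stem-cell neighbours had an interval above 0. NRPE1, the member on the chromosome of AGO5, is 4.84 Mb from it.

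The remaining genes gave scattered and smaller differences. CLSY4 was lower than wt21 in 3 comparisons, with differences of -5.54 points in ago59 stem-cell nuclei (-8.67 to -2.35), -4.74 in ago5 sperm nuclei (-8.11 to -1.36) and -3.63 in ago59 sperm nuclei (-7.03 to -0.201), while the ago9 intervals and that of ago5 stem-cell nuclei held 0. CLSY3 had differences of 4.02 points in ago5 sperm nuclei (1.77 to 6.30), 2.11 in ago9 stem-cell nuclei (0.231 to 4.05) and -2.06 in ago59 stem-cell nuclei (-3.62 to -0.525). RDR2 and DCL3 were lower in ago5 in both cell types, with -3.31 points in sperm and -3.20 in stem-cell nuclei at RDR2 and -3.09 and -2.77 points at DCL3, and upper bounds between -0.365 and -0.257. DCL3 was also lower in ago59 sperm nuclei, at -3.12 points (-5.93 to -0.323). NRPD1 and CLSY1 had intervals below 0 in ago59 stem-cell nuclei alone, at -2.61 and -3.89 points. NRPE1 and NRPD2 had no interval that left out 0, and their differences ran from -1.03 to 0.966 points and from -0.0958 to 2.95 points. None of the 23 other pathway genes differed by 10 points in any of the 6 comparisons.

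In CHG and CHH, 13 of the 120 gene, context and comparison combinations had an interval that left out 0. The share of nuclear genes with such an interval in CHG was 5.09% in ago5, 4.53% in ago9 and 5.28% in ago59 sperm nuclei, and 5.4% in ago5, 5.45% in ago9 and 5.74% in ago59 stem-cell nuclei. In CHH it was 13.9% in ago5, 13.2% in ago9 and 15.7% in ago59 sperm nuclei, and 15.3% in ago5, 15.4% in ago9 and 15.8% in ago59 stem-cell nuclei. The largest difference in either direction was 0.639 points in CHG and -0.322 points in CHH.

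The comparison of sperm with stem-cell nuclei showed higher CG methylation in sperm at most of the genes. Cell type goes with tissue, age, sorting, number of nuclei sorted and sequencing runs here, and these cannot be told apart. The chloroplast CHH level also differed between the cell types. The members' median difference was 5.62 points in ago5, 4.64 in ago9, 7.19 in ago59 and 6.86 in wt21, beside 0.953, 1.02, 0.996 and 1.02 over all nuclear genes. At least 10 points higher in sperm were 2 genes in ago5, 3 in ago9, 3 in ago59 and 2 in wt21, beside 7.25%, 8.26%, 8.22% and 7.81% of nuclear genes. Among nuclear genes with a mean CG level of at least 10% the shares were 19.1% in ago5, 21.6% in ago9, 21.4% in ago59 and 20.4% in wt21, so the members' counts lay near those of other methylated genes. Intervals lay above 0 for 7 genes in ago5, 7 in ago9, 8 in ago59 and 8 in wt21, beside 37.1%, 37.6%, 37.6% and 40.0% of nuclear genes and 56.5%, 58.7%, 58.4% and 58.3% of those at 10% or more. No member had an interval below 0, beside 1.36% of nuclear genes in ago5, 1.38% in ago9, 1.37% in ago59 and 1.54% in wt21.

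**Figure D4:**
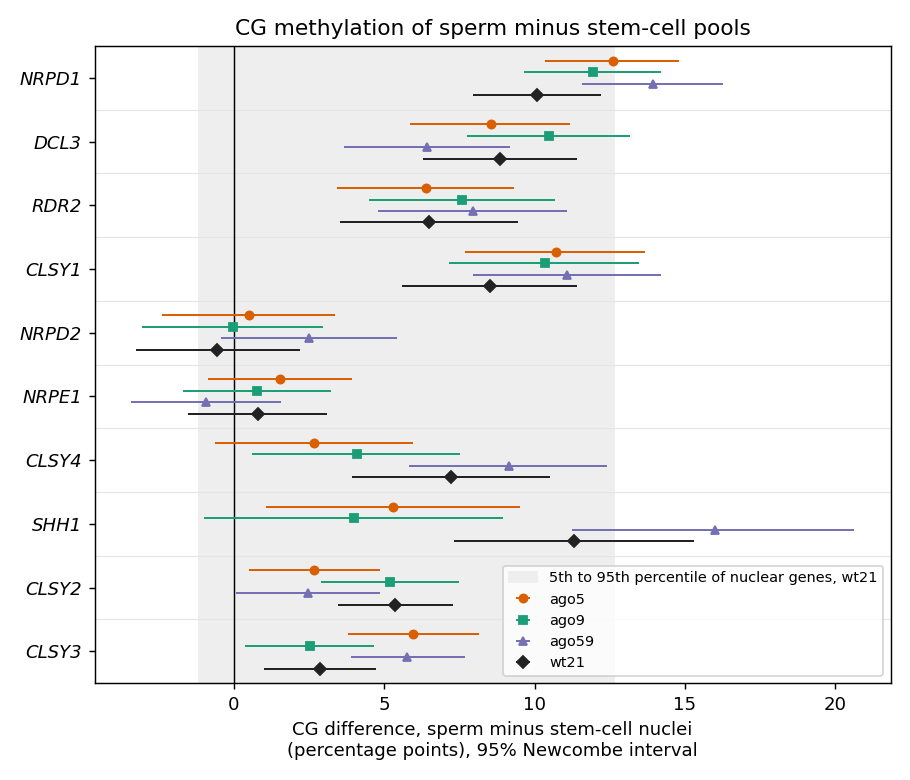
CG difference (percentage points) of sperm minus stem-cell nuclei for each gene in ago5, ago9, ago59 and wt21, with its 95% Newcombe interval; the grey band holds the 5th to 95th percentile of all nuclear genes in wt21 (-1.17 to 12.6 points). NRPD1 lies above 10 points in all 4 genotypes, NRPD2 and NRPE1 hold 0 in all 4, and SHH1 spreads from 3.99 to 16.0 points.

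NRPD1 had a difference above 10 points in every genotype, 12.6 in ago5 (10.4 to 14.8), 11.9 in ago9 (9.65 to 14.2), 13.9 in ago59 (11.6 to 16.3) and 10.1 in wt21 (7.95 to 12.2). Centring on the median nuclear gene took the wt21 difference below 10 points. Between 4.40% and 7.69% of nuclear genes, taken whatever their CG level, had a difference as high or higher. The median of its 20 neighbours, taken whatever their CG level, was 0.442 to 1.44 points. CLSY1 followed with 10.7 in ago5 (7.70 to 13.7), 10.3 in ago9 (7.16 to 13.5), 11.1 in ago59 (7.96 to 14.2) and 8.52 in wt21 (5.60 to 11.4). Unlike those of NRPD1, the neighbours of CLSY1 were themselves higher in sperm nuclei, with medians of 5.97 points in ago5, 8.42 in ago9, 7.74 in ago59 and 6.93 in wt21. DCL3 was higher by 8.54 points in ago5, 10.5 in ago9, 6.43 in ago59 and 8.85 in wt21, and RDR2 by 6.38, 7.59, 7.96 and 6.49 points in the same order of genotypes. The neighbours of DCL3 were also higher in sperm nuclei, with medians of 4.70 points in ago5, 3.28 in ago9, 3.84 in ago59 and 6.33 in wt21. Those of RDR2 had medians of 0.487 to 1.25 points.

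SHH1 differed most between genotypes in this comparison, with 5.28 points in ago5 (1.08 to 9.50), 3.99 in ago9 (-1.003 to 8.96), 16.0 in ago59 (11.3 to 20.6) and 11.3 in wt21 (7.30 to 15.3). The ago9 and ago59 intervals did not overlap. CLSY4 was higher in sperm by 2.68 points in ago5 (-0.631 to 5.97), 4.08 in ago9 (0.595 to 7.51), 9.14 in ago59 (5.81 to 12.4) and 7.23 in wt21 (3.94 to 10.5). CLSY2 and CLSY3 were higher in sperm in all 4 genotypes with every interval above 0, CLSY2 by 2.46 to 5.36 points and CLSY3 by 2.52 to 5.95 points. With 0.25 of the calls the intervals of CLSY2 in ago5 and ago59 and of CLSY3 in ago9 and wt21 held 0. Subtracting the chloroplast level turned CLSY3 in ago9 to -1.47 points and brought CLSY2 and CLSY4 in ago9 to 1.84 and 1.03 points. NRPE1 of Pol V and NRPD2, which Pol IV and Pol V share, were near 0. NRPE1 differed by 1.53 points in ago5, 0.776 in ago9, -0.945 in ago59 and 0.785 in wt21, and NRPD2 by 0.488 in ago5, -0.0473 in ago9, 2.50 in ago59 and -0.550 in wt21. Subtracting the chloroplast level turned NRPE1 in ago9 to -2.16 points and NRPD2 in ago5 to -0.174 points. The widest of these 8 intervals, for NRPD2, ran from -3.05 to 2.96 points in ago9, so a difference of the size seen at NRPD1 lay outside all of them. Of the other 23 pathway genes, 2 passed 10 points in 1 genotype each. IDN2, an RNA-binding factor of the pathway, was at 42.0% in sperm and 32.0% in stem-cell nuclei of ago9, and DRD1 was at 56.0% in sperm and 44.8% in stem-cell nuclei of ago59.

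In CHG and CHH the differences between sperm and stem-cell nuclei were small as read from the table and depended on the background. The median member difference was 0.431, 0.540, 0.529 and 0.595 points in CHG and 0.591, 0.410, 0.372 and 0.517 points in CHH for ago5, ago9, ago59 and wt21, beside nuclear gene medians of 0.446, 0.491, 0.424 and 0.530 in CHG and 0.461, 0.480, 0.419 and 0.520 in CHH. Intervals lay above 0 in CHG for 8, 9, 8 and 7 members, beside 27.1%, 26.5%, 24.5% and 33.7% of nuclear genes, and in CHH for 10, 10, 9 and 10 members, beside 61.0%, 59.7%, 56.2% and 65.9%. Subtracting the chloroplast background turned the sign of 73 of these 80 gene differences, so no direction was read from them.

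No transposable element overlapped any of the 10 genes, but 11 elements lay within 2 kb of NRPD1, CLSY1, CLSY4, RDR2 or DCL3. NRPE1, NRPD2, SHH1, CLSY2 and CLSY3 had none. Transposable elements are the usual targets of the pathway, and short ones beside genes are typical ones. Unlike the genes, several of these elements were methylated outside CG. In CHH, 9 or 10 elements had at least 10 calls in both pools of a mutant comparison. At least 10 points from wt21 in sperm nuclei were 3 elements in ago5, 0 in ago9 and 2 in ago59, beside 9.11%, 8.47% and 8.97% of transposable elements. In stem-cell nuclei the counts were 4 in ago5, 3 in ago9 and 4 in ago59, beside 9.39%, 10.7% and 9.56%. Of these 16 differences 11 were above and 5 below wt21, and 5 of the 16 intervals left out 0 with 0.25 of the calls. Before CLSY4, AT3TE37025 and AT3TE37030 lie inside AT3TE37020 and share cytosines with it, so these elements are not separate counts. The sequences of 4 elements described below are given because they show which contexts each can carry. Each is printed 5′ to 3′ on the annotated strand of the element, with CG dinucleotides in capitals. AT3TE63685 (chr3:15753055-15753157, plus strand) lies 229 bp before the start of DCL3, AT4TE29160 (chr4:6784790-6785156, minus strand) 157 bp after the end of RDR2, AT3TE37035 (chr3:8837289-8837478, minus strand) 1459 bp before CLSY4 and AT3TE60370 (chr3:14762173-14762279, minus strand) 1543 bp before CLSY1. Of AT4TE29160, 300 of 367 bases are shown (chr4:6784857-6785156). TAIR10 coordinates are used.
AT3TE63685: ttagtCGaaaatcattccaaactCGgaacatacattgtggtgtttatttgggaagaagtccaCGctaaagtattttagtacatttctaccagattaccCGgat
AT4TE29160: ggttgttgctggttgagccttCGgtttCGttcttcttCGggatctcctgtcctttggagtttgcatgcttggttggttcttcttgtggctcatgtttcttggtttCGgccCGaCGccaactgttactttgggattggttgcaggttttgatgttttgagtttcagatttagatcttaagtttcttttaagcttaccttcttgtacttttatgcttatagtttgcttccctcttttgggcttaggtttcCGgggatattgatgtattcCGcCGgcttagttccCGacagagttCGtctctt
AT3TE37035: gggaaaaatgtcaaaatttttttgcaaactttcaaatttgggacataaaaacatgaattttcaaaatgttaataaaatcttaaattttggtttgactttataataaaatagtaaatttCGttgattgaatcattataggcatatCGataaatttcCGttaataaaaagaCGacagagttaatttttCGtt
AT3TE60370: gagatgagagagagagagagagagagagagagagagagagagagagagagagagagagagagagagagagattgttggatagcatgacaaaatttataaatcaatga

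Counted on both strands, AT3TE63685 holds 8 CG, 5 CHG and 25 CHH sites. Its CG level was 100% in ago5, 96.7% in ago9, 91.2% in ago59 and 94.3% in wt21 sperm nuclei, and 79.3% in ago5, 82.8% in ago9, 87.8% in ago59 and 76.9% in wt21 stem-cell nuclei, from 29 to 52 calls each. Its CHH level was 4.82% in ago5 (4 of 83 calls), 10.2% in ago9 (11 of 108), 5.19% in ago59 (4 of 77) and 17.2% in wt21 (16 of 93) sperm nuclei. In stem-cell nuclei it was 6.61% in ago5 (8 of 121), 17.9% in ago9 (24 of 134), 25.9% in ago59 (41 of 158) and 28.3% in wt21 (52 of 184). The wt21 pool was the highest in each cell type and the ago5 pool the lowest. At least 10 points below wt21 were ago5 and ago59 in sperm nuclei, at -12.4 points (-21.8 to -3.003) and -12.0 points (-21.5 to -2.26), and ago5 and ago9 in stem-cell nuclei, at -21.7 points (-29.3 to -13.2) and -10.4 points (-19.2 to -0.850). As many as 5.34% and 5.39% of transposable elements were that much lower in the sperm comparisons of ago5 and ago59, and 4.84% and 5.17% in the stem-cell comparisons of ago5 and ago9. With 0.25 of the calls the ago5 stem-cell interval still left out 0 (-36.7 to -3.44), and the other 3 held it.

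AT4TE29160 holds 30 CG, 25 CHG and 99 CHH sites. Its CG level was 98.3% in ago5, 98.2% in ago9, 97.4% in ago59 and 96.6% in wt21 sperm nuclei, against 78.5% in ago5, 78.7% in ago9, 86.3% in ago59 and 79.0% in wt21 stem-cell nuclei, with every sperm pool above every stem-cell pool. The differences of 11.1 to 19.8 points are common among elements, of which 50.4% in ago5, 49.6% in ago9, 51.3% in ago59 and 49.3% in wt21 were at least 10 points higher in sperm. CHH went the other way. Its level was 1.37% in ago5, 1.45% in ago9, 0.928% in ago59 and 1.11% in wt21 sperm nuclei, against 4.61% in ago5 (28 of 607 calls), 3.96% in ago9 (17 of 429), 4.79% in ago59 (23 of 480) and 11.8% in wt21 (70 of 594) stem-cell nuclei. The 3 mutant stem-cell pools lay together and below wt21, at -7.17 points in ago5 (-10.3 to -4.10), -7.82 in ago9 (-11.0 to -4.54) and -6.99 in ago59 (-10.2 to -3.71). Intervals lay below 0 for 10.9%, 10.2% and 12.3% of transposable elements in the same comparisons. All 3 intervals share the wt21 pool, and with 0.25 of the calls they left out 0, with upper bounds of -0.910, -0.831 and -0.110 points. Without chloroplast subtraction, RDR2 next to it had its higher CHH level in sperm nuclei, the opposite of the element. Subtraction turned the sign of RDR2 in ago9 and made its difference smaller elsewhere. The sperm levels of the element were themselves near or below the chloroplast level of their pools (1.06% to 4.56%).

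AT3TE37035 holds 11 CG, 4 CHG and 29 CHH sites and is part of a group of 5 elements before CLSY4. Its CHH level was 25% in ago5 (28 of 112 calls), 29.6% in ago9 (21 of 71) and 20.3% in ago59 (30 of 148) stem-cell nuclei, against 6.98% in wt21 (9 of 129). Here the 3 mutants were higher than wt21, by 18.0 points in ago5 (8.89 to 27.4), 22.6 in ago9 (11.6 to 34.5) and 13.3 in ago59 (5.21 to 21.2), while 4.55%, 5.55% and 4.74% of transposable elements were at least 10 points higher in the same comparisons. With 0.25 of the calls the ago9 interval left out 0 (1.33 to 46.3), and those of ago5 (-0.680 to 37.0) and ago59 (-3.88 to 29.5) held it. In sperm nuclei it was at 7.14% in ago5, 10.3% in ago9, 12.0% in ago59 and 13.2% in wt21, from 28 to 50 calls, with all intervals overlapping. The longest element before CLSY4, AT3TE37020 of 999 bp, was at 71.1% to 98.2% in CG and 5.81% to 14.3% in CHH over the 8 pools.

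AT3TE60370 is a repeat of GA with 44 CHH sites and neither a CG nor a CHG site, so any methylation of it is CHH. Its level was 64.9% in ago5 (24 of 37 calls), 33.7% in ago9 (28 of 83), 55.6% in ago59 (35 of 63) and 38.6% in wt21 (39 of 101) sperm nuclei. In stem-cell nuclei it was 20.0% in ago5 (8 of 40), 70.8% in ago9 (17 of 24), 29.3% in ago59 (17 of 58) and 8.49% in wt21 (9 of 106). The pools of ago5 in both cell types and of ago9 in stem-cell nuclei had fewer calls than the element has sites, so these values rest on few reads. The mutant differences of AT3TE60370 in stem-cell nuclei were 11.5 points in ago5 (-0.210 to 26.8), 62.3 in ago9 (41.2 to 77.1) and 20.8 in ago59 (8.58 to 34.1), and with 0.25 of the calls the ago9 interval alone left out 0.

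AT1TE76970, the element of 1342 bp that lies 133 bp before NRPD1, had only 6 to 38 CG calls per pool and CG levels of 35.7% to 86.7%. Its CHH level in stem-cell nuclei was 13.7% in ago5 (23 of 168 calls), 1.47% in ago9 (2 of 136) and 12.1% in ago59 (21 of 173), against 0.521% in wt21 (1 of 192). The ago5 and ago59 pools were thus the high ones, by 13.2 points in ago5 (8.18 to 19.2) and 11.6 in ago59 (6.92 to 17.3), and with 0.25 of the calls both intervals left out 0. This is the opposite direction to AT3TE63685 and AT4TE29160, where the wt21 stem-cell pool was the highest. Each stem-cell pool of AT1TE76970 had fewer CHH calls than the element's 222 CHH sites, so these values rest on few reads. In sperm nuclei AT1TE76970 was at 3.53% in ago5, 11.4% in ago9, 6.75% in ago59 and 5.38% in wt21.

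**Figure D5:**
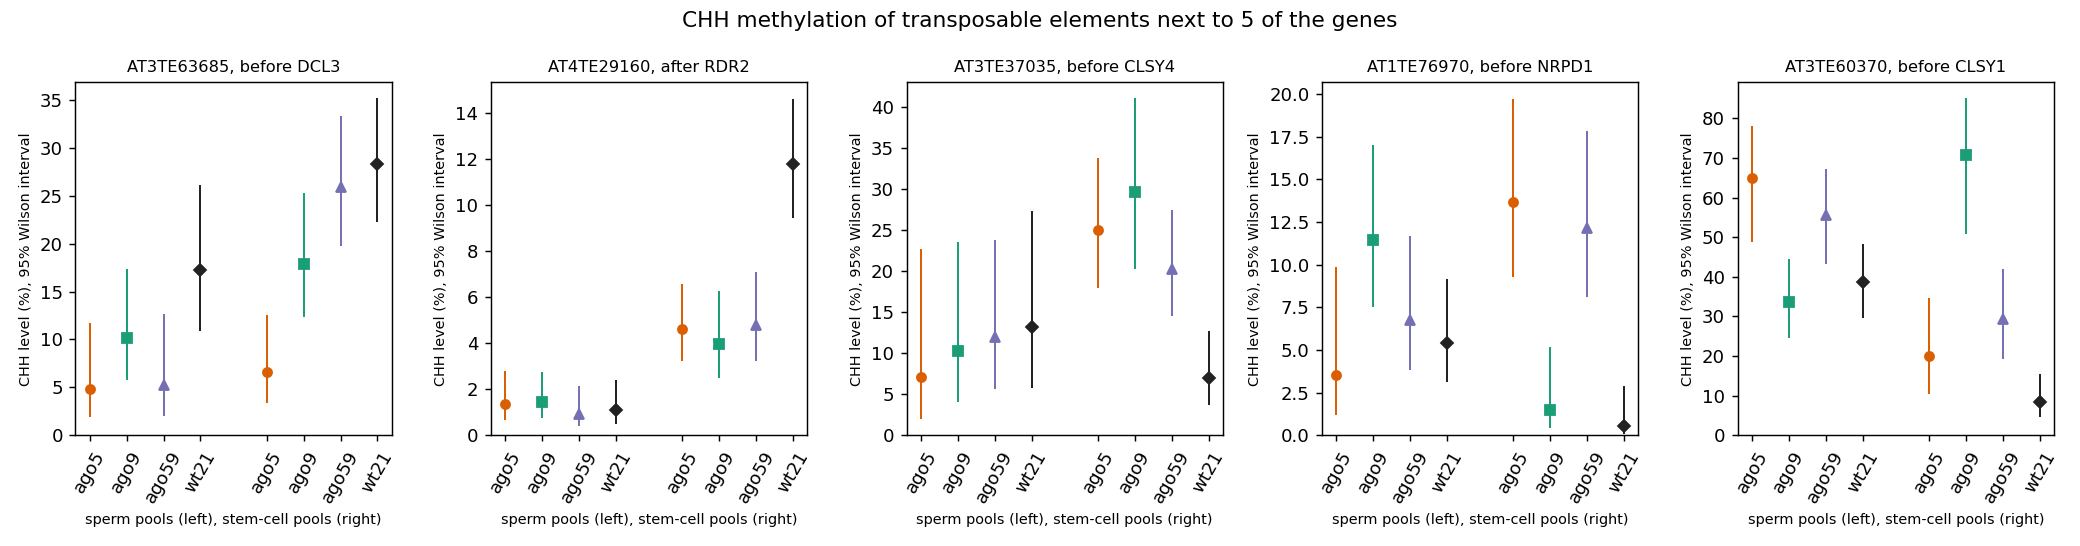
CHH methylation level (%) with its 95% Wilson interval of 5 transposable elements next to DCL3, RDR2, CLSY4, NRPD1 and CLSY1 in the 4 sperm pools (left in each panel) and the 4 stem-cell pools (right). At AT4TE29160 the wt21 stem-cell pool stands at 11.8%, above the 3 mutant stem-cell pools at 3.96% to 4.79%, at AT3TE63685 the ago5 pools stand lowest at 4.82% and 6.61%, and at AT3TE37035 and AT1TE76970 the wt21 stem-cell pool stands lowest at 6.98% and 0.521%.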

How the data were processed

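Whole-genome bisulfite libraries were made from 1 to 5 ng of DNA of 50000 sorted sperm nuclei or 3000 to 4000 sorted stem-cell nuclei, per the labels' protocols, which name the Pico Methyl-Seq kit. The submitters' processing notes name Trim Galore, Bismark, bedtools 2.30.0 and the build TAIR10, without role or order. The authors deposited a table that gives each feature, in each context and pool, a count of methylated calls and a count of all calls, in 48 columns, and a methylation level as a fraction in 24 more, per the file headers. The deposited fraction equals methylated over total calls in every cell. How replicates and sequencing runs were joined is not given in the sources used here. The table's coordinates equal those of TAIR10.1 for 32960 of 32961 nuclear genes and for all 10 members.

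Levels, Wilson intervals and Newcombe intervals (95%) were computed from the counts of calls. A difference was called at 10 points with at least 10 calls in both pools, over all nuclear genes. The planned quasi-binomial model needs values per replicate and could not be fitted, so each comparison is described without a test. The named genes were all 10 members, those of the 23 other pathway genes past 10 points, the closest profiles and the elements within 2 kb of a member. AGO5 and AGO9 were named for position and AT1G15220 for its overlap with SHH1. Of the other pathway genes, AGO4, NRPE5, NRPE7, DRM2 and SUVH9 were picked outside this rule. No measured value entered the rule that took the members, but members and lists were chosen with earlier results of these data known. Alternatives were the deposited levels, subtraction of the chloroplast CHH level, centring on the median nuclear gene, 0.25 of the calls taken as independent, thresholds of 5 and 20 points, minimums of 5 and 20 calls, narrower windows and other numbers of neighbours. The background of genes at 10% CG or more was a later addition, made with the data in view. The CG difference of ago9 and wt21 stem-cell nuclei, its call at 10 points and its Newcombe interval were checked on simulated data. That simulation drew calls as independent of each other, and the other statistics were not simulated. Sequences come from the RefSeq genome of TAIR10.1. Analyses used Python 3.11.15, numpy 2.4.6, pandas 2.3.3, scipy 1.17.1 and matplotlib 3.10.9.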

Additional observations from a re-analysis of the deposited data

How the results depend on the processing

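No paired analysis was possible because the table has 1 column per group, and for the same reason no replicate could be left out. Of the 100 CG differences of the members, subtracting the chloroplast CHH level turned the sign of 8 and centring that of 3, 9 in all. Of the 54 whose interval left out 0, 1 turned, CLSY3 in ago9, with a sperm minus stem-cell difference of -1.47 points after subtraction. With 0.25 of the calls taken as independent, intervals left out 0 in the mutant comparisons for 0 members in ago5, 1 in ago9 and 2 in ago59 sperm nuclei, and for 1 in ago5, 2 in ago9 and 1 in ago59 stem-cell nuclei. The same setting left 0 of 13 CHG and CHH mutant differences and 33 of 71 sperm minus stem-cell ones.

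A threshold of 5 points gave 2 members in ago9 and 2 in ago59 sperm nuclei, and 1 in ago5, 2 in ago9 and 3 in ago59 stem-cell nuclei. For sperm against stem-cell nuclei it gave 6 in ago5, 5 in ago9, 7 in ago59 and 7 in wt21. For the other pathway genes it gave 1 in ago9 and 1 in ago59 sperm nuclei, 1 in ago5 and 2 in ago9 stem-cell nuclei, and between the cell types 4, 6, 4 and 3. At 20 points 0 members were left in every comparison. Centring on the median nuclear gene left 1 member past 10 points between the cell types in ago5, 1 in ago9 and 1 in wt21. The one in wt21 was SHH1, as NRPD1 fell below 10 points there. A minimum of 5 calls gave 6 elements with CG values in every pool in place of 3, a window of 1 kb gave 4 with CHH values in place of 9, and 0 overlapped a gene.

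CHG and CHH differences between the cell types depended on the background. Subtracting the chloroplast CHH level put 66 of 80 CHG and 57 of 80 CHH levels below 0. It gave median member differences of -0.605 in ago5, -3.89 in ago9, -0.235 in ago59 and -0.474 in wt21 for CHG, and -0.443 in ago5, -4.02 in ago9, -0.393 in ago59 and -0.552 in wt21 for CHH, and -2.83 points for RDR2 CHH in ago9. Centring gave -0.0147 in ago5 for CHG, and -0.0704 in ago9, -0.0471 in ago59 and -0.00292 in wt21 for CHH. The subtracted chloroplast level was 1.06% to 4.56% in the sperm pools and 0.303% to 0.312% in the stem-cell pools. Whether it is a suitable background for nuclear genes was not tested.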
